A study of Homo sapiens with 24 samples.

Results

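The genes described here are 40 of the 60675 genes counted in each library: 16 enzymes of glycolysis, 5 regulators of glycolytic flux, 17 targets of the hypoxia-inducible factors (HIFs) and the 2 HIF alpha subunits HIF1A and EPAS1. They were chosen by name and function, with earlier results of these data known. Each symbol matched 1 gene identifier in the count files. Levels are given in CPM, fragment counts relative to each library's total after TMM scaling over all 24 libraries, and a difference as a log2 fold change ± its standard error. A gene was called changed where edgeR's quasi-likelihood test gave an adjusted p under 0.05 and the fold change was at least 1.5.

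RNA was sequenced from 2 human prostate cancer cell lines, LNCaP:C4-2 and 22Rv1, in 4 groups of 3 libraries per line. LNCaP:C4-2 (C4-2 below) is a castrate-resistant line that carries full-length androgen receptor and remains sensitive to enzalutamide, and 22Rv1 also carries androgen receptor variants and is resistant to that drug. Every library came from cells kept in medium with charcoal-stripped serum and transfected 2 times with an siRNA pool, so that controls were transfected too. The pool was non-targeting (siSCR) or directed against METTL3 (siMETTL3), the catalytic subunit of the enzyme that writes N6-methyladenosine on RNA. After 48 h the cells received the second transfection together with 1 nM R1881, a synthetic androgen, or ethanol vehicle for 72 h. The groups of each line were thus siSCR vehicle, siMETTL3 vehicle, siSCR R1881 and siMETTL3 R1881. No source states whether the 3 libraries of a group came from separate cultures, so the p-values measure the spread between these libraries, which may be technical. The labels name no low-oxygen treatment.

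Glycolysis splits glucose into pyruvate, which lactate dehydrogenase turns into lactate. Hexokinase traps glucose in the cell, phosphofructokinase commits it to the pathway, and aldolase, triosephosphate isomerase, GAPDH, phosphoglycerate kinase, phosphoglycerate mutase, enolase and pyruvate kinase follow in that order. PFKFB enzymes set the level of a small sugar phosphate that activates phosphofructokinase, pyruvate dehydrogenase kinases (PDKs) hold pyruvate back from the mitochondria, and SLC16A3 exports lactate. HIF1A and EPAS1 are made continuously, are marked for destruction in the presence of oxygen by the EGLN prolyl hydroxylases, and when stable bind DNA with ARNT at short sequences with the core ACGTG or GCGTG. Many glycolytic genes are themselves HIF targets, as are genes of blood vessel growth, pH control, mitophagy and collagen hydroxylation. Prostate epithelium is known for an unusual citrate-secreting metabolism that is driven by androgen.

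METTL3 was lower in the siMETTL3 libraries of both lines. In C4-2 vehicle its level was 31.1, 28.6 and 26.5 CPM under siSCR and 19.8, 19.8 and 17.5 CPM under siMETTL3, and in 22Rv1 vehicle 46.1, 45.4 and 46.6 CPM against 25.2, 24.2 and 25.3 CPM, with no overlap in either line. The log2 fold change was -0.61 ± 0.11 in C4-2 vehicle, -0.57 ± 0.11 in C4-2 R1881, -0.89 ± 0.08 in 22Rv1 vehicle and -1.18 ± 0.08 in 22Rv1 R1881. The fall in C4-2 R1881 was under 1.5-fold.

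The libraries held 15716224 to 21306019 counted fragments, and 3 counts in a library correspond to 0.141 to 0.191 CPM. Of 9 luminal prostate markers, 9 were above that floor in every group, while leukocyte markers summed to at most 2.14 CPM in any library. Of 4 endothelial markers VWF was the 1 that could be tested in C4-2, where the list summed to 3.08 to 3.49 CPM in siSCR vehicle, 6.27 to 6.43 CPM in siSCR R1881 and up to 12.6 CPM in siMETTL3 R1881, and in 22Rv1 the list summed to at most 0.160 CPM. Of 5 fibroblast markers only COL1A1 was above the floor in C4-2, where the sum of the list was 41.1 to 61.96 CPM in siSCR vehicle and 60.7 to 71.97 CPM in siMETTL3 vehicle. The mitochondrially encoded share of counts was 3.93% to 9.73%, and it split 3 groups. In C4-2 it was 9.60% in replicate 1 of siMETTL3 vehicle against 6.89% and 7.03% in replicates 2 and 3, and 7.08% in replicate 1 of siSCR R1881 against 9.73% and 9.69% in the others. In 22Rv1 it was 7.45% in replicate 1 of siMETTL3 vehicle against 5.27% and 5.04%. The 2 C4-2 libraries also stood apart in several of the genes below, HIF1A, SLC16A3 and DDIT4 among them, and the 22Rv1 library in SLC16A3. In C4-2, replicate 1 of siMETTL3 vehicle was the highest of its group for ERO1A and P4HA1. Replicate 1 of siSCR R1881 was the highest of its group for ALDOA, ALDOC and ENO2. Counts are therefore also given without each of the 3 libraries.

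Promoter sequences in RefSeq (GRCh38.p14, from 250 bases before to 50 bases after the transcription start) were on hand for 38 of the 40 genes, VEGFA and BNIP3L being the others. A core of ACGTG or GCGTG, read on both strands so that CACGT and CACGC count as well, was present in at least 1 such window of 35 of the 38 genes (92.1%), against 14318 of 27305 genes in the whole table (52.4%) and 7939 of 11402 genes tested in C4-2 and matched by symbol (69.6%). For the core ACGTG alone the shares were 25 of 38 genes (65.8%), 24.9% and 32.2%. Overlapping matches were counted separately, and genes with several annotated starts had several windows. These are matches of letters in a short window, not measured binding.

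The sequences below are shown for 4 genes whose levels differed in the C4-2 comparisons and between lines (PGK1, ENSG00000102144; PFKFB4, ENSG00000114268; P4HA1, ENSG00000122884; ERO1A, ENSG00000197930), for ANKRD37 (ENSG00000186352), which had the largest increase of the set with R1881 in C4-2 under siSCR, and for CA9 (ENSG00000107159), which fell with R1881 in C4-2, and EGLN3 (ENSG00000129521), which fell with R1881 in 22Rv1. The windows are chrX:78103998-78104297 (forward strand) for PGK1, chr3:48556754-48557053 (reverse strand) for PFKFB4, chr10:73096817-73097116 (reverse strand) for P4HA1, chr14:52695509-52695808 (reverse strand) for ERO1A, chr4:185396591-185396890 (forward strand) for ANKRD37, chr9:35673678-35673977 (forward strand) for CA9 and chr14:33951025-33951324 (reverse strand) for EGLN3. Each is written 5′ to 3′ along the gene, and capitals mark the cores.
PGK1: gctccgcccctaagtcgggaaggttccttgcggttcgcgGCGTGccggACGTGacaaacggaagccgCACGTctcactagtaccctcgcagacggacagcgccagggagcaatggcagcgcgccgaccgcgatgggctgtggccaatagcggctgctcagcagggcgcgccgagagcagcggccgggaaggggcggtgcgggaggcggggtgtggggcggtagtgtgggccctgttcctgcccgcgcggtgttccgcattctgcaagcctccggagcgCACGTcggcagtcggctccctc
PFKFB4: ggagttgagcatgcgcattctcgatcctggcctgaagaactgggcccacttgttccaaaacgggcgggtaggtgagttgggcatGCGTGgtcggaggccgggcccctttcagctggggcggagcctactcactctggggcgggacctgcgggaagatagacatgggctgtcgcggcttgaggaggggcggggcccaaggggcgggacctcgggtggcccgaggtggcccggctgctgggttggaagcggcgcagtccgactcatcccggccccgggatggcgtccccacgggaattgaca
P4HA1: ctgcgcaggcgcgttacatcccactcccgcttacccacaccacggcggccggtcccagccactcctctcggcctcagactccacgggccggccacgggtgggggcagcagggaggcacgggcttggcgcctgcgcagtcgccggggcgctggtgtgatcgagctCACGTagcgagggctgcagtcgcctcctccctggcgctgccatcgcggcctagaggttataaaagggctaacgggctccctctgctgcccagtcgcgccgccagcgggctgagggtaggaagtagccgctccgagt
ERO1A: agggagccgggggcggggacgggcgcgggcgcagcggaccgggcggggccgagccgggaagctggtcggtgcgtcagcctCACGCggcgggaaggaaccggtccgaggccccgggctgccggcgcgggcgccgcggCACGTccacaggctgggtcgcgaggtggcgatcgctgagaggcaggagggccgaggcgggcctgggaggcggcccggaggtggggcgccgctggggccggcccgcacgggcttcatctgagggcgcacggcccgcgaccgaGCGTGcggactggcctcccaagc
ANKRD37: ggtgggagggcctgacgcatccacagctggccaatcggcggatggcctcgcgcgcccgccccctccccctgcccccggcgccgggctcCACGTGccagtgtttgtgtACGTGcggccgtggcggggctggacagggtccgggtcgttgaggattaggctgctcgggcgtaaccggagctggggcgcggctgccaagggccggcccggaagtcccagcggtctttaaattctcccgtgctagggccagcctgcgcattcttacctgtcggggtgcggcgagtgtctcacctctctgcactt
CA9: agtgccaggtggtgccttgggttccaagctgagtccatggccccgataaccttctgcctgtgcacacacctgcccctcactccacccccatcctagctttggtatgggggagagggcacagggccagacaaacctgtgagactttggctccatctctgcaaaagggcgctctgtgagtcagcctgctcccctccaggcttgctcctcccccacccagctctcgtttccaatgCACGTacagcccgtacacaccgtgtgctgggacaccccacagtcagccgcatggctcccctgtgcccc
EGLN3: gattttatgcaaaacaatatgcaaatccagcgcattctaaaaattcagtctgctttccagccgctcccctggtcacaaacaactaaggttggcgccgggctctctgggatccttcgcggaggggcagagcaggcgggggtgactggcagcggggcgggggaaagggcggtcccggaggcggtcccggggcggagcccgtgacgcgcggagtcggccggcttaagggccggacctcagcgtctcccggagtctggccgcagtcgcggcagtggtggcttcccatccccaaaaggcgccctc
PGK1 held 4 cores, ERO1A and ANKRD37 3 each, and PFKFB4, P4HA1 and CA9 1 each. In ANKRD37 2 matches overlapped in CACGTG, a letter sequence that reads the same on both strands. EGLN3 held none in this window, although it is counted here among the hypoxia targets.

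Before any treatment comparison, the lines differed widely. In siSCR vehicle libraries 28 of 39 tested members were lower and 5 higher in 22Rv1 than in C4-2, against 59.2% of all 19437 genes called in either direction, 27.9% called lower and 31.2% called higher. In 31 members all 22Rv1 libraries were below all C4-2 libraries and in 5 above, against 37.1% and 38.3% of all genes. The median member was 1.79 lower on the log2 scale, where the median of all genes was 0.03. Scaling by library size alone moved that median of all genes to 0.18 in vehicle and from 0.09 to 0.29 with R1881, and 32 and 34 members were then called. Bulk libraries do not tell fewer cells with a transcript from less transcript per cell. PPP1R3C, a glycogen-targeting phosphatase subunit, had too few counts to test: it was at 0 counts in all 12 C4-2 libraries and at 0 to 3 counts in 22Rv1.

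**Figure D1:**
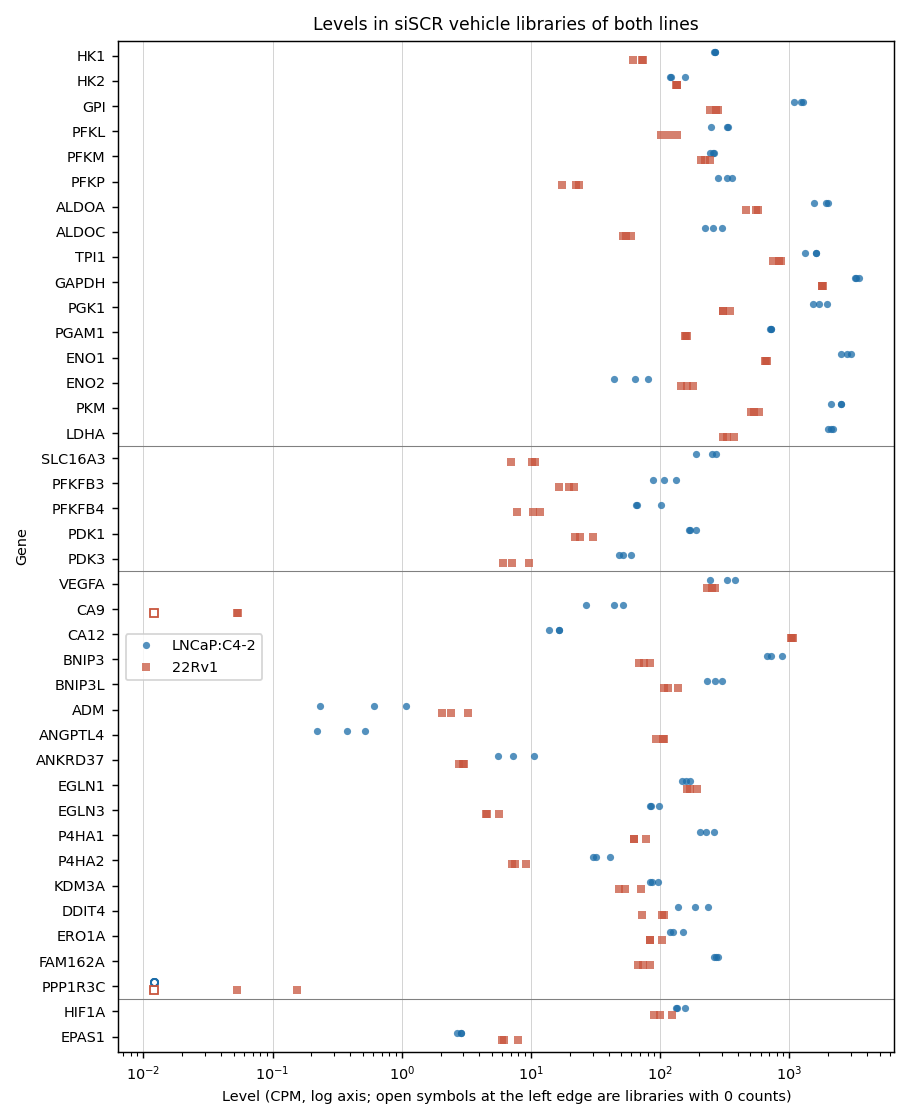
Level of the 40 genes (CPM, logarithmic axis) in the 3 siSCR vehicle libraries of LNCaP:C4-2 (circles) and 22Rv1 (squares), each symbol 1 library, with open symbols at the left edge for 0 counts. Most glycolytic enzymes and all 5 flux regulators sit lower in 22Rv1, whereas CA12, ANGPTL4, ADM, ENO2 and EPAS1 sit higher.

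Among the glycolytic enzymes 13 of 16 were lower in 22Rv1, with log2 differences from -0.87 for GAPDH to -3.94 for PFKP, and 1 was higher. Per kilobase of exon, GAPDH was the most abundant member in both lines, at 1113 ± 46.8 CPM per kb in C4-2 and 606 ± 7.001 in 22Rv1 (SD, n = 3). In C4-2 it was followed by ENO1 (702 ± 67.4 CPM per kb) and TPI1 (563 ± 60.2), then by LDHA, PGK1, ALDOA, PGAM1 and PKM between 278 and 336 CPM per kb, 5 genes whose neighbours in this order lay within their spread. Fragments that map to several places were left out of the counts, and several of these enzymes have many processed pseudogenes, so their levels are uncertain and may be too low. Lengths were those of all exons annotated for a gene, 8571 bases for PKM and 2568 for PGAM1. The order per kilobase therefore depends on the annotation.

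LDHA, which makes lactate, was at 2088, 2179 and 1994 CPM in C4-2 and 307, 332 and 375 CPM in 22Rv1. It was -2.62 ± 0.09 on the log2 scale in 22Rv1 relative to C4-2 (adjusted p = 6.16e-19). The platelet-type phosphofructokinase PFKP showed the widest gap among the enzymes, 329, 359 and 282 CPM against 23.5, 22.2 and 17.3 CPM (-3.94 ± 0.14, adjusted p = 6.18e-19). All libraries of C4-2 were above all libraries of 22Rv1 for both genes.

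Not every enzyme was lower. HK2, the inducible hexokinase, was at 119, 155 and 122 CPM in C4-2 and 135, 135 and 133 CPM in 22Rv1, with overlapping values and a log2 difference of 0.03 ± 0.11. PFKM, the muscle-type phosphofructokinase, differed by -0.18 ± 0.09 (adjusted p = 0.0784). The neuronal enolase ENO2 was higher in 22Rv1, at 181, 162 and 144 CPM against 63.6, 81.3 and 43.8 CPM (1.37 ± 0.21, adjusted p = 2.46e-06).

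The makeup of single enzyme steps differed between lines accordingly. PFKP made up 49.2% ± 0.900 of phosphofructokinase transcript per kilobase in C4-2 siSCR vehicle and 8.95% ± 0.670 in 22Rv1 (SD, n = 3), while PFKM made up 25.8% ± 1.87 and 63.7% ± 1.64. HK2 made up 33.2% ± 3.02 of the hexokinase pair HK1 and HK2 in C4-2 and 66.1% ± 1.85 in 22Rv1. ENO2 was 2.02% ± 0.415 of the 2 enolases in C4-2 and 18.4% ± 1.60 in 22Rv1. ALDOC, the brain-type aldolase, was 22.9% ± 1.16 of ALDOA and ALDOC together in C4-2 and 18.1% ± 0.901 in 22Rv1. For each of these forms the libraries of the 2 lines did not overlap. No test was run on these shares, and their size depends on the annotated exon lengths.

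**Figure D2:**
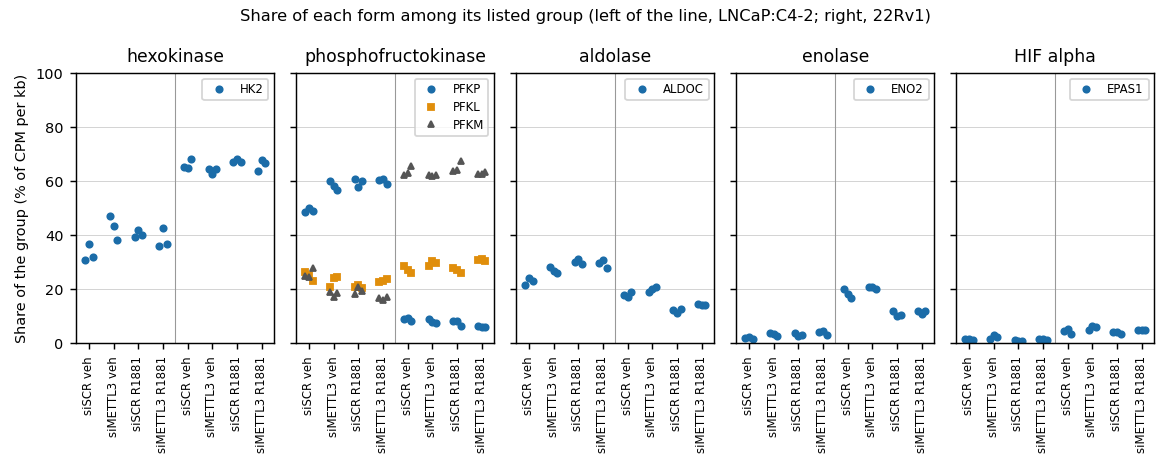
Share (%) of single forms within the listed forms of hexokinase, phosphofructokinase, aldolase, enolase and HIF alpha, computed from counts per kilobase of exon. Each symbol is 1 library, with the 4 LNCaP:C4-2 groups left and the 4 22Rv1 groups right of the line. PFKP is the largest phosphofructokinase form in LNCaP:C4-2 (49.2% in siSCR vehicle) and PFKM in 22Rv1 (63.7%), and this order holds in all groups shown.

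The 5 flux regulators were all lower in 22Rv1. SLC16A3, the lactate exporter, was at 252, 271 and 189 CPM in C4-2 and 10.8, 10.3 and 6.96 CPM in 22Rv1 (-4.66 ± 0.25, adjusted p = 5.13e-15). PFKFB4, PFKFB3, PDK1 and PDK3 were lower by log2 values of -2.96, -2.50, -2.79 and -2.79.

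The hypoxia targets divided between the lines, with 10 of 16 lower and 3 higher in 22Rv1. The 2 carbonic anhydrases, cell surface enzymes that hydrate carbon dioxide, stood at opposite ends. CA9 was at 43.6, 51.3 and 26.6 CPM in C4-2 and at 2 counts over the 3 libraries of 22Rv1, a ratio of 1036 with a 95% counting interval of 287 to 8563. CA12 was at 13.9, 16.6 and 16.5 CPM in C4-2 and 1069, 1045 and 1040.2 CPM in 22Rv1 (6.07 ± 0.10), where it ranked 4 of 40 per kilobase.

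ANGPTL4, a secreted inhibitor of lipoprotein lipase, was near the floor in C4-2 at 0.2203, 0.376 and 0.5205 CPM and reached 108, 105 and 93.6 CPM in 22Rv1 (8.09 ± 0.23, adjusted p = 4.15e-21). ADM, a vasodilator peptide, was low in both lines at 0.606, 1.07 and 0.231 CPM in C4-2 and 2.06, 3.26 and 2.39 CPM in 22Rv1 (1.99 ± 0.32). EGLN3, a HIF prolyl hydroxylase, went the other way, from 83.9, 97.7 and 84.7 CPM in C4-2 to 5.67, 4.596 and 4.46 CPM in 22Rv1 (-4.17 ± 0.12). BNIP3, a receptor for removal of mitochondria, was at 728, 873 and 670.3 CPM against 75.4, 68.2 and 83.6 CPM (-3.32 ± 0.14). VEGFA, the blood vessel growth factor, and EGLN1, the main HIF prolyl hydroxylase, were not called (-0.34 ± 0.16 and 0.14 ± 0.09). ERO1A, an oxidase of disulfide formation, had an adjusted p of 0.00524 but a difference under 1.5-fold (-0.54 ± 0.17).

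HIF1A itself was at 134, 136 and 156 CPM in C4-2 and 90.1, 99.7 and 123 CPM in 22Rv1, a difference of -0.44 ± 0.16 that did not reach 1.5-fold. EPAS1 was low in both lines and higher in 22Rv1, at 6.24, 8.02 and 5.98 CPM against 2.86, 2.899 and 2.66 CPM (1.27 ± 0.17). HIF1A made up 98.6% ± 0.171 of the pair per kilobase in C4-2 and 95.6% ± 1.04 in 22Rv1. HIF alpha subunits are regulated largely at the protein level, which was not measured here.

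With R1881 present in both lines (siSCR R1881), 32 of 39 members were lower and 4 higher in 22Rv1, against 60.1% of all genes called, 27.5% called lower and 32.6% called higher. Of the 33 members called in vehicle 32 were called in the same direction with R1881, the exception being ENO2 (-0.24 ± 0.21). VEGFA, EGLN1, ERO1A and HIF1A were called lower in 22Rv1 with R1881 (-1.35, -0.79, -1.73 and -0.79). The KDM3A call in vehicle was lost in 5 of 9 alternative analyses.

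In C4-2 cells without androgen, siMETTL3 raised a large share of the set. 15 of 39 tested members were higher and 0 lower, against 0.828% of all 16435 genes called higher, 0.371% called lower and 1.2% called in either direction. The median member was 0.60 higher on the log2 scale (median of all genes 0.0014), 36 of 39 members lay above zero, and in 28 of 39 all siMETTL3 libraries were above all siSCR libraries, against 12.1% of all genes. In 0 members they were all below, against 9.88%. By DESeq2 18 members passed, against 344 of all genes. The calls rested on 3 libraries: without siSCR vehicle replicate 1, siSCR vehicle replicate 3 or siMETTL3 vehicle replicate 2 the count was 0, with adjusted p-values of the 15 members up to 0.208, and without each of the other 3 it was 15 to 19. Without siMETTL3 vehicle replicate 1, the library with the high mitochondrial share, it was 16. How many of all genes were called without each library is not given here. The falls to 0 are therefore not read as particular to the members. COL1A1 and the mitochondrial share moved with some of these libraries, and their part in the result was not tested.

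Among the enzymes 6 of 16 rose, namely HK2, GPI, PFKP, ALDOC, PGK1 and ENO2. PGK1, which makes the first ATP of the pathway, was at 1691, 1968 and 1541 CPM under siSCR and 3200.1, 3052 and 2602 CPM under siMETTL3. The libraries did not overlap and the difference was 0.75 ± 0.13 (adjusted p = 0.0104). ENO2 had the largest increase of the set, from 63.6, 81.3 and 43.8 to 167, 175 and 124 CPM (1.29 ± 0.26, adjusted p = 0.0262), although its level stayed far below that of ENO1. GPI, the isomerase after hexokinase, rose from 1238, 1279 and 1081 to 2144, 2023 and 1692 CPM (0.69 ± 0.14). HK2 went from 119, 155 and 122 to 225, 223 and 179 CPM (0.64 ± 0.14), PFKP differed by 0.64 and ALDOC by 0.88.

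ENO1 and LDHA passed the test on p but not on size (0.54 ± 0.12 and 0.43 ± 0.08, adjusted p = 0.0313 and 0.0205). The other 8 enzymes did not pass the test, with log2 values from -0.10 for PFKM to 0.57 for ALDOA. The makeup of single steps shifted, in shares that were not tested: PFKP went from 49.2% ± 0.900 to 58.4% ± 1.62 of phosphofructokinase transcript per kilobase and HK2 from 33.2% ± 3.02 to 42.9% ± 4.38 of hexokinase.

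Of the flux regulators 2 of 5 rose. PFKFB4 was at 65.9, 102 and 65.3 CPM under siSCR and 173, 215 and 166 CPM under siMETTL3 (1.23 ± 0.18, adjusted p = 0.00946). PFKFB3 was at 107, 133 and 87.9 against 258, 278 and 208 CPM (1.17 ± 0.19, adjusted p = 0.00977). Both enzymes set the level of the activator of phosphofructokinase, which was not measured, and for both the groups did not overlap. PDK1 passed on p only (0.53 ± 0.12), and PDK3 and SLC16A3 did not pass (-0.09 ± 0.11 and 0.46 ± 0.22). For SLC16A3, siMETTL3 replicate 1 was at 198 CPM and the others were at 404 and 387 CPM.

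The hypoxia targets all lay above zero, and 7 of 16 rose. ERO1A was at 119.5, 150.5 and 125 CPM under siSCR and 428, 292 and 210.02 CPM under siMETTL3 (1.22 ± 0.20, adjusted p = 0.00977), with a wide spread among the siMETTL3 libraries. VEGFA was at 327, 379.9 and 244 against 692, 703 and 543 CPM (1.01 ± 0.20, adjusted p = 0.0228). The collagen prolyl hydroxylase subunits P4HA1 and P4HA2 rose together, P4HA1 from 228, 262 and 203 to 556, 427 and 341 CPM (0.92 ± 0.15) and P4HA2 from 30.02, 41.1 and 31.7 to 70.2, 73.5 and 62.8 CPM (0.99 ± 0.15).

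The mitophagy receptors BNIP3 and BNIP3L (0.60 ± 0.14 and 0.80 ± 0.14) and the HIF hydroxylase EGLN1 (0.59 ± 0.11) completed the 7. BNIP3 and EGLN1 lay close to the fold threshold. EGLN3 and FAM162A passed on p but not on size (0.57 and 0.52). DDIT4, an inhibitor of mTOR signalling, and CA9 had values of similar size that did not pass (1.11 ± 0.28 and 0.88 ± 0.25, adjusted p = 0.0673 and 0.0953).

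Neither HIF alpha transcript passed the test. HIF1A was at 134, 136 and 156 CPM under siSCR and 201, 116 and 111 CPM under siMETTL3, a difference of -0.01 ± 0.18 (adjusted p = 0.986) in which siMETTL3 replicate 1 lay above all siSCR libraries and the other 2 below them. EPAS1 was 0.65 ± 0.21 (adjusted p = 0.126).

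**Figure D3:**
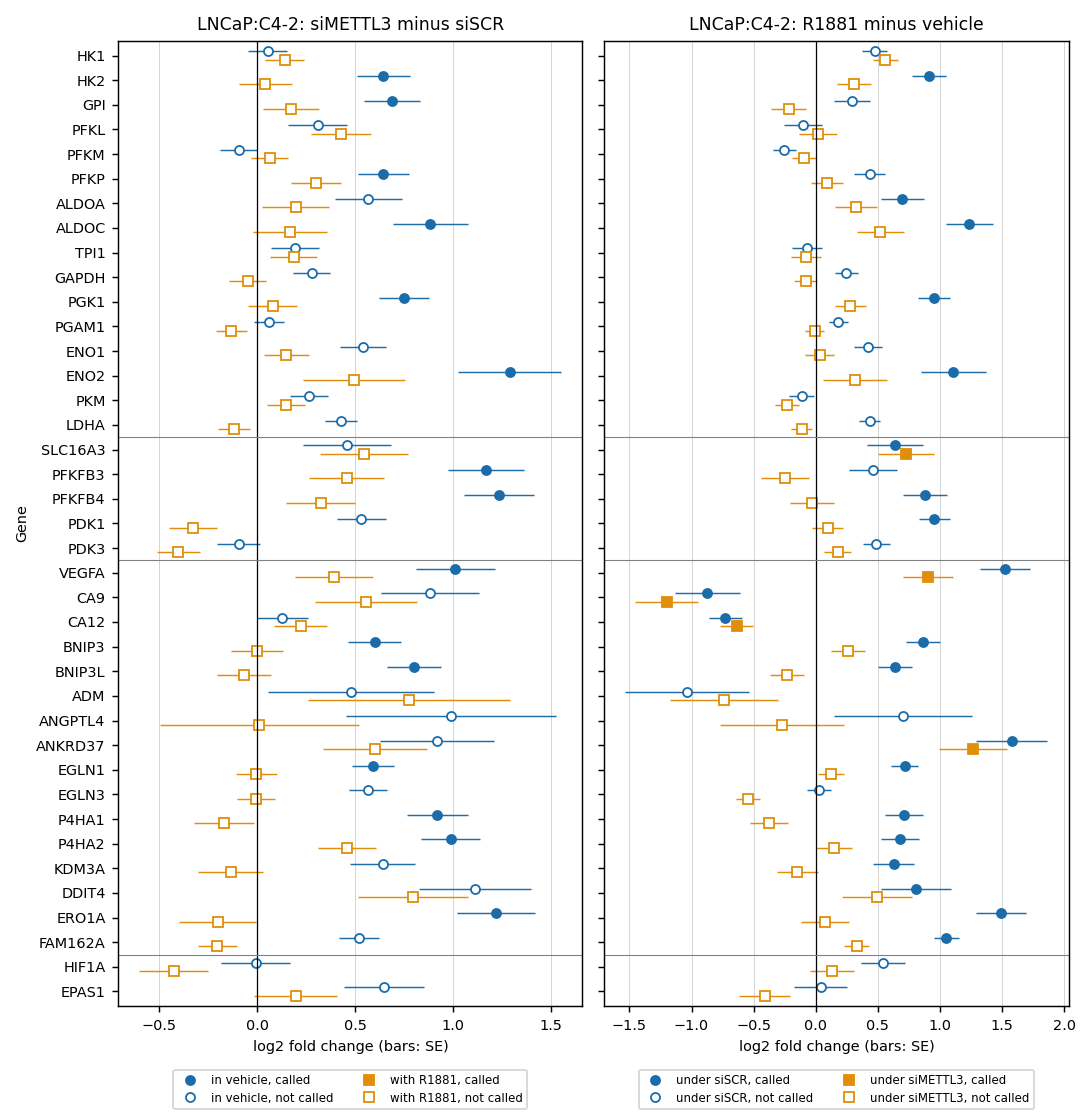
Log2 fold changes (horizontal axis, bars ± SE) of the 39 genes tested in LNCaP:C4-2 for siMETTL3 minus siSCR (left) and R1881 minus vehicle (right), each in 2 settings, with filled symbols for called genes. With siMETTL3 in vehicle 15 genes are called and with siMETTL3 in R1881 0, and R1881 under siSCR gives 21 called genes against 5 under siMETTL3.

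R1881 raised many of the members in C4-2 under siSCR, in a comparison that shares its vehicle libraries with the siMETTL3 comparison above. 19 of 39 members were higher and 2 lower, against 7.39% and 7.72% of all 16435 genes and 15.1% called in either direction. The median member was 0.63 higher and the median of all genes -0.03, and in 26 of 39 members all R1881 libraries were above all vehicle libraries, against 20.9% of all genes. In 2 members they were all below, against 20.4%. Scaling by library size alone moved the median of all genes to -0.15 and left 15 members called. Without siSCR R1881 replicate 1, the library with the low mitochondrial share, 18 were called. In the same comparison 5 of 9 luminal markers and VWF (0.94) were called higher, and their part in the result was not tested.

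Among the enzymes 5 of 16 rose and 0 fell. PGK1 went from 1691, 1968 and 1541 CPM in vehicle to 3890.1, 2956 and 3271 CPM with R1881 (0.95 ± 0.13, adjusted p = 5.57e-05). HK2 went from 119, 155 and 122 to 277, 242 and 232 CPM (0.91 ± 0.14) and ALDOC from 257, 303 and 222 to 831, 490.3 and 538 CPM (1.24 ± 0.19). In these 3 genes the groups did not overlap. ENO2 rose from 63.6, 81.3 and 43.8 to 193, 94.5 and 123 CPM (1.11 ± 0.26) and ALDOA from 1938, 2005 and 1566 to 4022, 2273 and 2715 CPM (0.70 ± 0.17). R1881 replicate 1 was the highest library for both, and without it the values were 0.80 for ENO2, which stayed called, and 0.45 for ALDOA, which did not.

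HK1, PFKP, ENO1 and LDHA passed on p with changes under 1.5-fold (log2 0.47, 0.43, 0.42 and 0.43). PFKL, PFKM, TPI1 and PKM had values below zero (-0.10, -0.25, -0.07 and -0.11) and did not pass.

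PDK1, which restrains pyruvate dehydrogenase, had the lowest adjusted p of the flux regulators, at 168, 189.7 and 169 CPM in vehicle and 319, 359.7 and 350.2 CPM with R1881 (0.96 ± 0.13, adjusted p = 4.4e-05). PFKFB4 rose by 0.88 ± 0.18 (adjusted p = 0.00198). SLC16A3 was called at the threshold (0.64 ± 0.22, adjusted p = 0.0495) and lost the call in 4 of 9 alternative analyses and without any 1 of 4 of the 6 libraries.

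Of the hypoxia targets 11 of 16 rose and 2 fell. ERO1A was at 119.5, 150.5 and 125 CPM in vehicle and 391, 343 and 385 CPM with R1881 (1.49 ± 0.20, adjusted p = 5.76e-05), VEGFA at 327, 379.9 and 244 and 1122, 727 and 906 CPM (1.52 ± 0.20, adjusted p = 5.3e-05). ANKRD37, an ankyrin repeat protein and classic HIF target, had the largest value, from 7.32, 10.6 and 5.61 to 32.1, 18.1 and 20.8 CPM (1.58 ± 0.29). FAM162A, a mitochondrial protein, had the lowest adjusted p of the set (262, 280.5 and 272 against 598, 534 and 567 CPM, 1.05 ± 0.10, adjusted p = 1.78e-06). BNIP3, BNIP3L, EGLN1, P4HA1, P4HA2 and KDM3A, a histone demethylase, rose by log2 values from 0.63 to 0.86.

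DDIT4 was called (0.81 ± 0.28, adjusted p = 0.0489) on values of 186, 235 and 137 CPM in vehicle and 519, 213 and 253 CPM with R1881, which overlapped. The call was lost by DESeq2 and in 5 of the other 8 alternative analyses, and without siSCR R1881 replicate 1, siSCR vehicle replicate 1 or siSCR vehicle replicate 3.

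The carbonic anhydrases fell against this trend. CA12 went from 13.9, 16.6 and 16.5 CPM to 10.9, 8.01 and 9.64 CPM (-0.73 ± 0.13, adjusted p = 0.000943) without overlap. CA9 went from 43.6, 51.3 and 26.6 to 33.2, 15.6 and 18.2 CPM (-0.87 ± 0.26, adjusted p = 0.0221), with R1881 replicate 1 inside the vehicle range, and the call was lost without any 1 of 4 libraries (adjusted p up to 0.114). EGLN3, the other prolyl hydroxylase, was level at 0.02 ± 0.10. HIF1A passed on p but not on size (0.54 ± 0.18, adjusted p = 0.0341) and EPAS1 was at 0.04 ± 0.21.

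**Figure D4:**
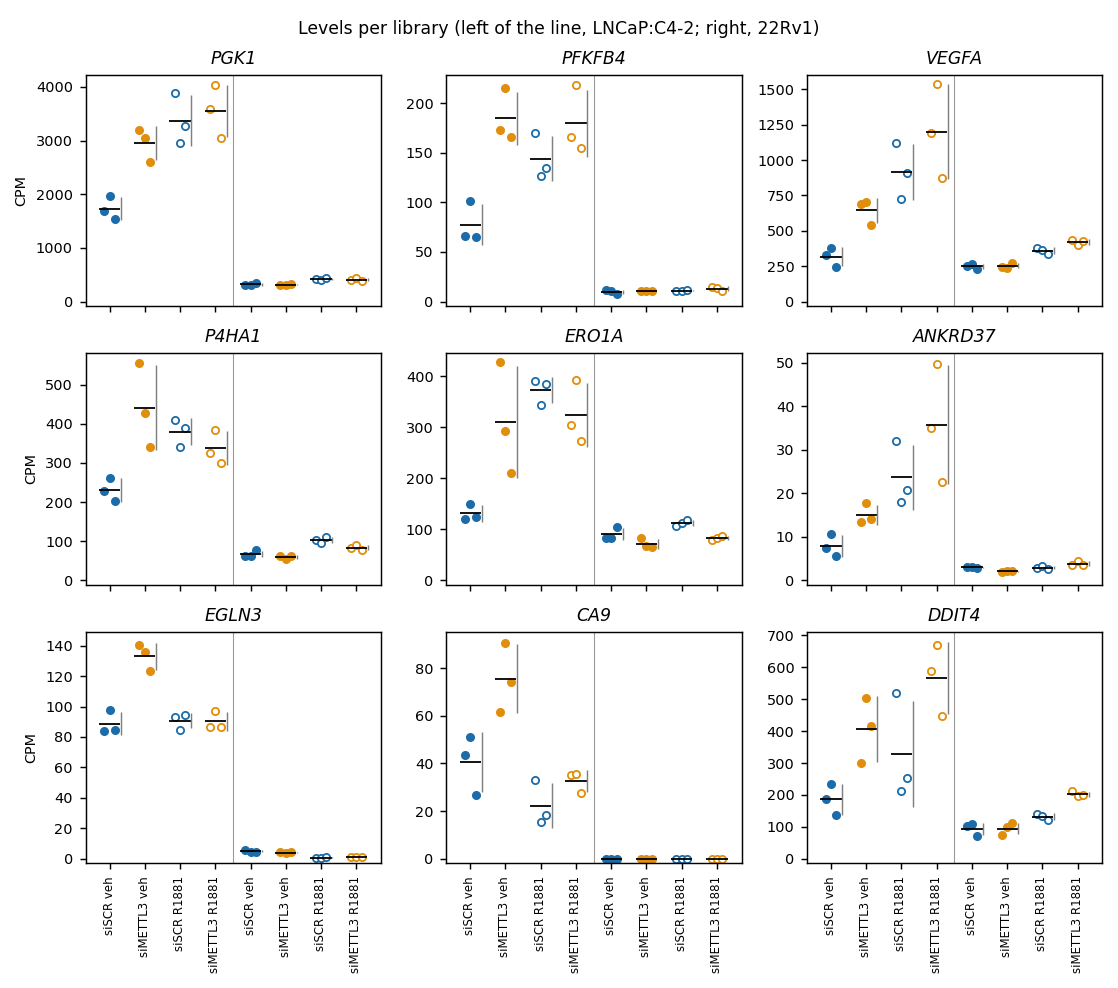
Level (CPM, linear axis from 0) of 9 genes in each of the 24 libraries, with blue symbols for siSCR and orange for siMETTL3, filled for vehicle and open for R1881, black lines for group means and grey bars for ± SD. In LNCaP:C4-2 (left of the line) the siSCR vehicle group is lowest for PGK1, PFKFB4, VEGFA, P4HA1, ERO1A, ANKRD37 and DDIT4, and CA9 is not visible in 22Rv1.

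With R1881 present, siMETTL3 changed 0 of 39 members in C4-2 by edgeR, against 0.7% of all genes, and DESeq2 called 0. An unadjusted p under 0.05 was reached by 11 members, against 4702 of all 16435 genes, a similar share. The median member was 0.14 higher. In 2 members all siMETTL3 libraries were above all siSCR libraries and in 6 below, against 15.4% and 17.9% of all genes. Without siSCR R1881 replicate 1 the count was 7, with the number of all genes called in that fit not given here. PGK1 was at 3890.1, 2956 and 3271 CPM under siSCR and 3584, 4026 and 3051 CPM under siMETTL3, and ERO1A at 391, 343 and 385 and 305, 394 and 272 CPM. In both the values overlapped, with log2 differences of 0.08 ± 0.13 and -0.20 ± 0.20. The members farthest from zero were DDIT4 and ADM (0.79 ± 0.28 and 0.77 ± 0.51) above it and HIF1A and PDK3 (-0.42 ± 0.18 and -0.40 ± 0.11) below it.

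Under siMETTL3, R1881 changed 5 of 39 members in C4-2, 3 upward and 2 downward, against 5.09% and 5.54% of all genes and 10.6% in either direction, and the median member was at 0.03. Of 9 luminal markers 5 were called higher and 1 lower, and VWF was higher (1.49). The 5 members were also called in the same direction under siSCR. VEGFA rose from 692, 703 and 543 to 1194, 1539 and 873 CPM (0.91 ± 0.20, adjusted p = 0.00507), and ANKRD37 from 13.3, 17.7 and 14.04 to 34.9, 49.8 and 22.6 CPM (1.26 ± 0.27). CA9 fell from 61.7, 90.7 and 74.3 to 35.1, 35.4 and 27.5 CPM (-1.20 ± 0.25) and CA12 from 18.9, 16.6 and 16.5 to 11.2, 11.4 and 10.7 CPM (-0.64 ± 0.13). SLC16A3 rose (0.73 ± 0.22), but vehicle replicate 1 was at 198 CPM against 404 and 387 CPM in the others, and the call was lost without any 1 of 3 libraries, this one included, under library size alone and under the replicate block. Without vehicle replicate 1 3 members were called, CA12 falling below the fold threshold. EGLN3 passed on p with a change under 1.5-fold (-0.55 ± 0.10).

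The interaction, the R1881 effect under siMETTL3 minus that under siSCR, was below zero for 33 of 39 members, with a median of -0.51 (median of all genes 0.0020). By edgeR 0 of 39 members and 0% of all 16435 genes passed the adjusted threshold. 21 members had an unadjusted p under 0.05, against 2037 of all genes. DESeq2 called 8 members, against 55 of all genes, and edgeR without the filter on low counts called 18 members. In that unfiltered fit ERO1A had a log2 value of -1.43 and an adjusted p of 6.68e-16, against 0.181 with the filter. How many of all genes the unfiltered fit called is not given here, so the 18 are not read as particular to the set. The interaction also uses the siSCR vehicle libraries that the siMETTL3 and R1881 comparisons above share. Values farthest from zero were those of ERO1A (-1.42 ± 0.28, adjusted p = 0.181), P4HA1 (-1.09 ± 0.22, adjusted p = 0.181) and ANGPTL4 (-0.98 ± 0.74), which was near the floor. For VEGFA, whose R1881 response was called under both siRNA pools, the interaction was -0.62 ± 0.28 (adjusted p = 0.396), so a difference between its 2 responses was not shown.

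In 22Rv1 without androgen siMETTL3 changed 0 of 38 tested members by edgeR and 0 by DESeq2. By edgeR 0.202% of all 17865 genes were called in either direction and 0.0616% were called higher. An unadjusted p under 0.05 was reached by 11 members, against 2604 of all genes. The median member was at 0.02. In 3 members the siMETTL3 libraries were all above the siSCR libraries and in 5 all below, against 6.87% and 6.13% of all genes. PGK1 was at 305, 306 and 348 CPM under siSCR and 311, 313 and 323 CPM under siMETTL3 (-0.02 ± 0.07), and VEGFA at 250.2, 268 and 230.3 and 245, 240.4 and 273 CPM (0.02 ± 0.08). In both the groups overlapped. ANKRD37 and ERO1A lay lowest (-0.49 ± 0.19 and -0.34 ± 0.09, adjusted p = 0.244 and 0.109), and EPAS1 and SLC16A3 highest (0.34 ± 0.13 and 0.34 ± 0.18). SLC16A3 was at 7.99, 12.8 and 14.6 CPM under siMETTL3, lowest in replicate 1, the library with the high mitochondrial share, and without that library 0 members were called.

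With R1881 in 22Rv1, siMETTL3 raised 1 of 38 members, DDIT4, against 2.3% of all genes called higher and 3.29% called in either direction. DDIT4 was at 141, 134 and 122 CPM under siSCR and 211, 197 and 199 CPM under siMETTL3 without overlap (0.60 ± 0.13, adjusted p = 0.0048). The value sat just above the fold threshold and fell below it without siSCR R1881 replicate 3 or siMETTL3 R1881 replicate 1. Smaller changes passed on p in 9 further members. PFKL, PFKM, ALDOC and TPI1 were higher (log2 0.48, 0.24, 0.27 and 0.32). PGAM1, LDHA, P4HA1, KDM3A and ERO1A were lower (-0.25, -0.29, -0.33, -0.39 and -0.45). At an unadjusted p under 0.05 there were 14 of 38 members and 5712 of all 17865 genes.

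R1881 under siSCR changed 4 of 38 members in 22Rv1, 2 upward and 2 downward, against 4.19% and 9.64% of all genes and 13.8% in either direction. The median member was at 0.14. In 17 members all R1881 libraries were above all vehicle libraries and in 5 below, against 23.1% and 20.6% of all genes. Of 9 luminal markers 0 were called higher and 2 lower, with a median of -0.01. Both fibroblast markers tested, COL1A1 and LUM, were called lower (-0.73 and -0.86). The part of these markers in the results was not tested. EGLN3 showed the strongest response of any member to any treatment, from 5.67, 4.596 and 4.46 CPM in vehicle to 0.592, 0.667 and 1.01 CPM (-2.70 ± 0.23, adjusted p = 8.1e-09). The gene was already low in 22Rv1. ANGPTL4 fell from 108, 105 and 93.6 to 65.8, 60.6 and 65.8 CPM (-0.68 ± 0.09). P4HA1 rose from 62.6, 63.1 and 77.2 to 103, 95.6 and 111 CPM (0.60 ± 0.09) and P4HA2 from 7.53, 9.14 and 7.18 to 12.8, 12.01 and 13.1 CPM (0.65 ± 0.12). P4HA1 was near the fold threshold, and its call was lost in 2 of 9 alternative analyses and without any 1 of 3 libraries.

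Replicates of 22Rv1 with R1881 were tighter than those of C4-2, with a median coefficient of variation of 5.24% among members at 10 CPM or more in siSCR R1881 against 13.98%. An adjusted p under 0.05 was reached by 20 of 38 members, most of them with changes under 1.5-fold. At an unadjusted p under 0.05 there were 22 members and 7617 of all 17865 genes, so many genes outside the set passed that looser threshold too. LDHA went from 307, 332 and 375 to 486, 468 and 567 CPM (0.57 ± 0.09, adjusted p = 2.52e-05), just under the fold threshold, and HK2 from 135, 135 and 133 to 197, 183 and 189 CPM (0.48 ± 0.06). VEGFA and BNIP3 had log2 values of 0.51 and 0.54. ALDOC and ENO2 moved down (-0.51 ± 0.09 and -0.50 ± 0.09), the reverse of their rise with R1881 in C4-2.

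Under siMETTL3, R1881 raised 3 of 38 members in 22Rv1 and lowered 1, against 4.18% and 9.29% of all genes and 13.5% in either direction. Of 9 luminal markers 2 were called higher and 2 lower, and both fibroblast markers tested were called lower. EGLN3 was the 1 member also called under siSCR (4.47, 3.704 and 4.29 against 1.097, 1.15 and 0.998 CPM, -1.96 ± 0.22). VEGFA rose from 245, 240.4 and 273 to 438, 398 and 425 CPM (0.71 ± 0.08), DDIT4 from 75.1, 98.6 and 111 to 211, 197 and 199 CPM (1.06 ± 0.13) and ANKRD37 from 1.97, 2.15 and 2.15 to 3.596, 4.38 and 3.49 CPM (0.84 ± 0.19). None of the 4 lost its call without any single library or in the 9 alternative analyses. The interaction called 0 of 38 members by edgeR, against 0.0168% of all genes, and 0 by DESeq2. For the interaction 3 members had an unadjusted p under 0.05, against 1101 of all 17865 genes, so the responses under the 2 pools were not shown to differ. Its largest values were 0.90 ± 0.26 for ANKRD37, 0.74 ± 0.35 for EGLN3 and 0.59 ± 0.18 for DDIT4.

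**Figure D5:**
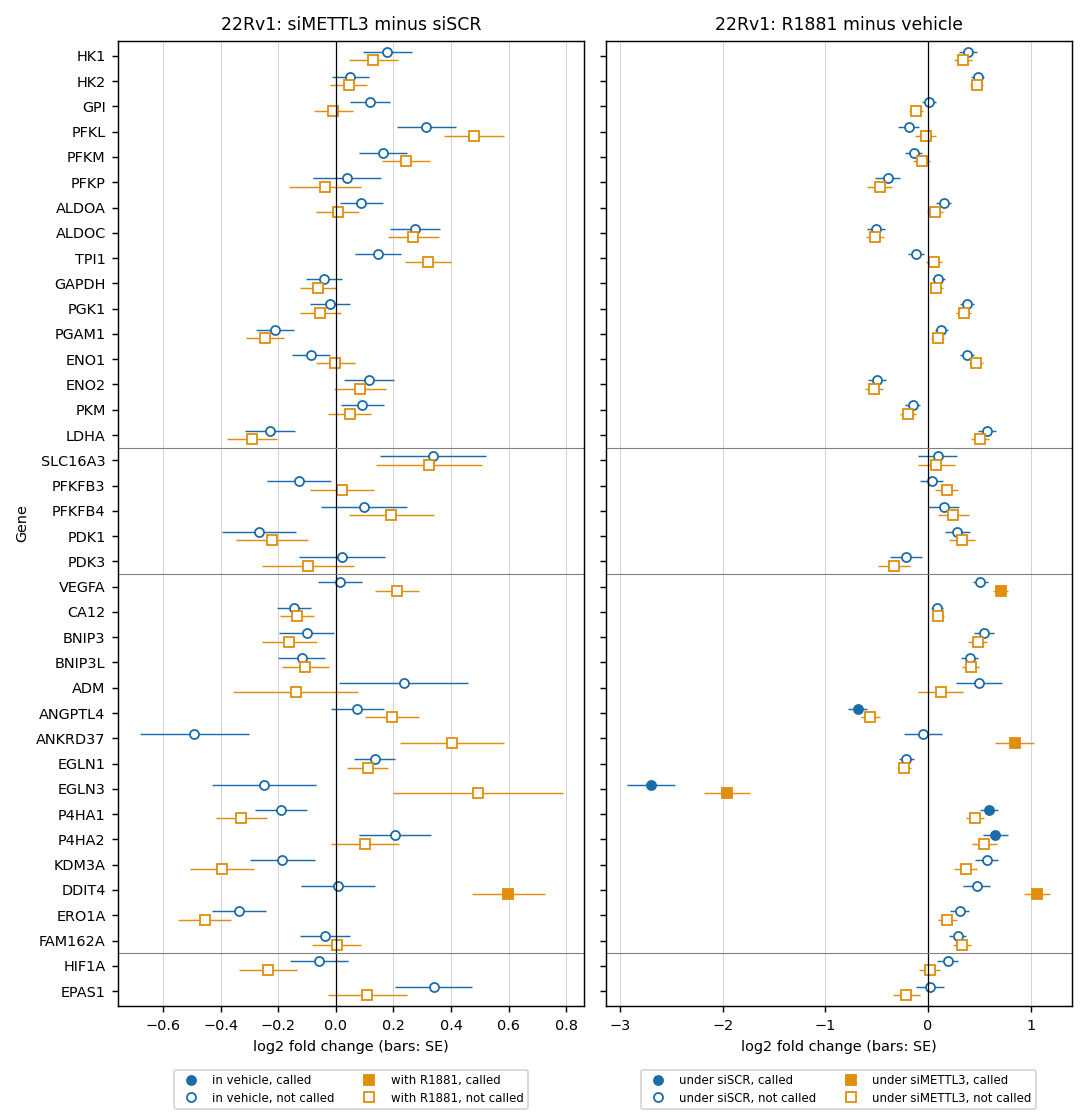
Log2 fold changes (horizontal axis, bars ± SE; the 2 panels have different scales) of the 38 genes tested in 22Rv1 for siMETTL3 minus siSCR (left) and R1881 minus vehicle (right), each in 2 settings, with filled symbols for called genes. In the left panel only DDIT4 with R1881 is called, and in the right panel EGLN3 lies far below all other genes (-2.70 under siSCR and -1.96 under siMETTL3).

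The lines were also compared in 1 model for the size of each response. In vehicle the siMETTL3 effect was lower in 22Rv1 than in C4-2 for 11 of 39 members and higher for 0. Of all 19437 genes 0.37% were lower, 0.0875% were higher and 0.458% differed in either direction. The 11 members were PGK1, ENO1, LDHA, PFKFB3, PFKFB4, PDK1, VEGFA, BNIP3L, EGLN3, P4HA1 and ERO1A. The difference was largest for ERO1A (-1.57 ± 0.24, adjusted p = 0.00263), where the effect was 1.22 in C4-2 and -0.34 in 22Rv1. For P4HA1 it was -1.13 ± 0.19 (adjusted p = 0.00651) and for PGK1 -0.79 ± 0.15 (adjusted p = 0.0139). The median member differed by -0.62. DESeq2 called 20 members, against 327 of all genes. Leaving out single libraries gave 3 to 19, with the number of all genes called in those fits not given here. At the low end were 3 without C4-2 siSCR vehicle replicate 1 and 5 without replicate 3 of that group. Then came 6 without C4-2 or 22Rv1 siMETTL3 vehicle replicate 2 and 7 without 22Rv1 siSCR vehicle replicate 2. At the high end were 19 without C4-2 siMETTL3 vehicle replicate 3. ERO1A, P4HA1 and BNIP3L passed without any 1 of the 12 libraries. With R1881 present 0 of 39 members differed by edgeR, against 0.0926% of all genes, and 0 by DESeq2. In that comparison 1 member had an unadjusted p under 0.05, against 1469 of all 19437 genes.

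The R1881 effect under siSCR differed between lines for 16 of 39 members, lower in 22Rv1 for 14 and higher for 2. Of all genes 9.02% were lower, 7.78% were higher and 16.8% differed in either direction. EGLN3 differed most (-2.72 ± 0.21, adjusted p = 3.98e-10), being level in C4-2 and lower in 22Rv1. ALDOC and ENO2 differed by -1.75 ± 0.23 and -1.61 ± 0.30, ANKRD37 by -1.64 ± 0.39, ERO1A by -1.19 ± 0.24, VEGFA by -1.02 ± 0.23 and EGLN1 by -0.93 ± 0.13. P4HA1 and P4HA2, the 2 members called higher with R1881 in both lines under siSCR, did not pass this test, with differences of -0.12 ± 0.19 and -0.03 ± 0.20. CA12 was higher, as was ADM near the floor (1.53 ± 0.53), whose call was lost in 5 of 6 alternative analyses and without any 1 of 9 of the 12 libraries. For CA12 the difference was 0.81 ± 0.12, since it fell in C4-2 and was level in 22Rv1 (0.09).

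The wider lists, which were also chosen with earlier results of these data known, set the members in context. Of 38 tested further HIF pathway and target genes 10 rose and 0 fell with siMETTL3 in C4-2 vehicle (0.828% and 0.371% of all genes), with a median log2 value of 0.38. Of 22 further genes of glycolysis and pyruvate metabolism 0 were called by edgeR (median -0.0025) and 1 by DESeq2. Of these 22 genes 5 had an unadjusted p under 0.05, against 2636 of all 16435 genes. Of the 10 HIF genes that rose, 2 with large changes were the transcriptional repressor BHLHE40 (1.47 ± 0.29) and NDUFA4L2, a mitochondrial protein (1.32 ± 0.26). They led the called genes with a mean of at least 1 CPM. Next among these came the lipid droplet protein HILPDA (1.28 ± 0.21), the stress-responsive NDRG1 (1.18 ± 0.19) and the collagen lysyl hydroxylase PLOD2 (1.17 ± 0.16). With siMETTL3 in R1881 0 genes of either list were called in C4-2 by edgeR. DESeq2 called 1 HIF gene and 2 glycolysis genes, against 477 of all 16435 genes. An unadjusted p under 0.05 was reached by 8 of 38 HIF genes and 7 of 22 glycolysis genes, against 4702 of all genes.

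R1881 under siSCR raised 15 of these 38 HIF genes in C4-2 and lowered 2, and raised 4 of the 22 glycolysis genes and lowered 0, against 7.39% of all genes higher and 7.72% lower (medians 0.38 and 0.13). LOX, a collagen crosslinking enzyme, went from 4.803 ± 0.608 to 62.5 ± 3.45 CPM (SD, n = 3; 3.69 ± 0.16), NDRG1 from 229 ± 51.8 to 847 ± 203 CPM (1.88 ± 0.19) and the mitochondrial pyruvate carrier subunit MPC2 from 104 ± 4.52 to 309 ± 6.31 CPM (1.57 ± 0.08). The glucose transporter gene SLC2A3 was at 0 counts in the 3 vehicle libraries and 16.5, 7.82 and 12.1 CPM with R1881, at least 66.3-fold higher against a floor of 3 counts per library. In 22Rv1 R1881 raised 5 and lowered 5 of 42 HIF genes and raised 2 and lowered 3 of 25 glycolysis genes, against 4.19% of all genes higher and 9.64% lower (medians 0.10 and 0.11). PDK4, the fasting-induced pyruvate dehydrogenase kinase, fell from 1341 ± 162 to 581 ± 11.8 CPM (-1.22 ± 0.09), and AK4, a mitochondrial adenylate kinase, rose from 107 ± 12.3 to 247 ± 10.8 CPM (1.20 ± 0.08).

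Between the lines in siSCR vehicle, 17 of 42 HIF genes were lower and 7 higher in 22Rv1, and 8 of 25 glycolysis genes lower and 7 higher, against 27.9% of all genes lower and 31.2% higher, shares that the glycolysis list lay close to (medians -0.41 and 0.06). PDK4 was at 1207, 1295 and 1520.2 CPM in 22Rv1 and 1 count over the 3 libraries of C4-2, a ratio of 80505 with a counting interval of 14449 to 3179800, which is opposite in direction to PDK1 and PDK3. The hexokinase-domain gene HKDC1 was at 20.1, 28.5 and 18.3 CPM in 22Rv1 and 0 counts in C4-2, at least 149-fold higher. PGM1, which links glycogen to glycolysis, was at 23.3, 20.7 and 22.5 CPM against 1.16, 0.537 and 0.5205 CPM (4.90 ± 0.23).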

How the data were processed

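Total RNA of 24 libraries had been sequenced, and each library was deposited as a table of raw counts. Per the submitters' processing notes the authors used Trim Galore for trimming and STAR with GRCh38 for alignment, and per the file headers featureCounts 1.5.0-p1 with Ensembl release 83 to count fragments. The command in the headers sets no strand option and none to keep fragments with several alignments, so genes with near-identical copies or overlapping partners have uncertain counts. The deposited counts were used as they are.

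Members, lists and tests were chosen with earlier results of these data known. All members were described. From the wider lists the text draws on up to 5 called genes per comparison, those with the largest change and a mean of at least 1 CPM. Libraries were grouped by their labels. Counts were filtered with filterByExpr (at least 10 counts, total 15), scaled by TMM and fitted with edgeR 4.0.16 in R 4.3.3 by the quasi-likelihood method, within each line (12 libraries, 8 residual degrees of freedom) or over both (16 degrees), with Benjamini-Hochberg adjustment over all genes tested. Two-group calls needed an adjusted p under 0.05 and a 1.5-fold change (0.585 on the log2 scale), and interactions and differences between lines the adjusted p only. Standard errors were derived from the log2 fold change and its F value. Alternatives were DESeq2 1.42.0, RLE size factors, library size alone, no filter, at least 10 counts in every library, a replicate block, other thresholds, only the 6 libraries compared, and single libraries left out. Counting intervals (95%) and floors of 3 counts cover counting error only. The fits were tested on simulated data. Promoters came from RefSeq (GRCh38.p14).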

Additional observations from a re-analysis of the deposited data

Results flagged for a closer look

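The effect of siMETTL3 in vehicle differed between LNCaP:C4-2 and 22Rv1 for 11 members by the test of the difference itself (edgeR's quasi-likelihood test over all 24 libraries, Benjamini-Hochberg adjusted). The values, as the effect in 22Rv1 minus that in C4-2 on the log2 scale, were -0.79 for PGK1, -0.64 for ENO1 and -0.67 for LDHA among the glycolytic enzymes. They were -1.31 for PFKFB3, -1.15 for PFKFB4 and -0.82 for PDK1 among the flux regulators and -1.01 for VEGFA, -0.94 for BNIP3L, -0.83 for EGLN3, -1.13 for P4HA1 and -1.57 for ERO1A among the hypoxia targets. In each of these 11 genes siMETTL3 gave a value above zero in C4-2 with an adjusted p under 0.05, and the 22Rv1 values ranged from -0.34 to 0.10, none of them called. The calls were lost without single libraries most often for VEGFA (9 of 12 libraries), PFKFB4 and PDK1 (8 each) and ENO1 (7), and those of VEGFA and PDK1 also under library size alone and with at least 10 counts in every library.

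The effect of R1881 under siSCR differed between the lines for 16 members by the same test. Lower values in 22Rv1 were -0.83 for PFKP, -1.75 for ALDOC, -0.57 for PGK1 and -1.61 for ENO2 among the enzymes, -0.73 for PFKFB4, -0.67 for PDK1 and -0.70 for PDK3 among the flux regulators, and -1.02 for VEGFA, -1.38 for ANGPTL4, -1.64 for ANKRD37, -0.93 for EGLN1, -2.72 for EGLN3, -1.19 for ERO1A and -0.77 for FAM162A among the hypoxia targets. Higher values in 22Rv1 were 0.81 for CA12 and 1.53 for ADM. ADM lay at 0.231 to 1.07 CPM in C4-2 siSCR vehicle and 0.264 to 0.355 CPM in siSCR R1881, close to the floor of 3 counts. The ADM call was lost in 5 of 6 alternative analyses (DESeq2, RLE size factors, no filter, the replicate block and an adjusted p under 0.01) and without any 1 of 9 of the 12 libraries, with an adjusted p up to 0.317. The ANGPTL4 call was lost in 3 of 6 (library size alone, the replicate block and an adjusted p under 0.01) and without any 1 of 8 libraries, and the PFKFB4 call in 2 of 7 (library size alone and an adjusted p under 0.01) and without any 1 of 7. Under the replicate block HK2 and ALDOA passed the test instead of ADM and ANGPTL4. ALDOC and ENO2 stood out in that the R1881 effect was called upward in C4-2 and passed on p downward in 22Rv1. Both sets of differences share their vehicle libraries.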

How the results depend on the processing

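Of the 15 comparisons, none of the called members changed sign under any alternative analysis or without any single library. For the fits without the filter on low counts the number of all genes called is not given here. Without that filter 2 members were called for siMETTL3 in C4-2 R1881, 18 for the C4-2 interaction and 1 for the 22Rv1 interaction. It was 23 for the difference between lines in the siMETTL3 effect in vehicle. By DESeq2 the C4-2 interaction had 8 and that difference 20. At an adjusted p under 0.01 siMETTL3 in C4-2 vehicle kept 5 calls and that difference 2. With no fold-change threshold 8 members were called for R1881 under siMETTL3 in C4-2. In 22Rv1 10 were called for siMETTL3 with R1881, 20 for R1881 under siSCR and 21 for R1881 under siMETTL3. The number of all genes at the adjusted p alone is not given here. At an unadjusted p under 0.05, a looser threshold, these comparisons had, in the same order, 13 of 39 members and 14, 22 and 23 of 38 members. At that looser threshold all genes gave 4833 of 16435 and 5712, 7617 and 7542 of 17865. The cause of these shifts was not tested, beyond the fact that a lower threshold admits more genes and a higher one fewer.

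Leaving out single libraries gave these ranges of members called, for which the number of all genes called is not given here. In C4-2 they were 0 to 19 for siMETTL3 in vehicle, 0 to 7 for siMETTL3 with R1881 (7 without siSCR R1881 replicate 1), 17 to 21 for R1881 under siSCR, 3 to 7 for R1881 under siMETTL3 and 0 to 3 for the interaction (3 without siMETTL3 vehicle replicate 3). In 22Rv1 they were 0 to 0 for siMETTL3 in vehicle, 0 to 1 for siMETTL3 with R1881, 3 to 8 for R1881 under siSCR (8 without siSCR R1881 replicate 2), 4 to 5 for R1881 under siMETTL3 and 0 to 1 for the interaction (1 without siSCR vehicle replicate 3). Between lines they were 32 to 34 in vehicle and 36 to 36 with R1881. For the differences between lines they were 3 to 19 for siMETTL3 in vehicle, 0 to 0 for siMETTL3 with R1881 and 13 to 17 for R1881.

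Same-numbered libraries of different groups did not deviate together (mean correlation -0.02 over 18 pairs in C4-2, from -0.48 to 0.32, and -0.01 in 22Rv1, from -0.34 to 0.25), so the numbers were not taken as pairs. A fit with a block for replicate number called 15 members for siMETTL3 in C4-2 vehicle, 19 and 4 for R1881 in C4-2 under siSCR and siMETTL3, 1 for siMETTL3 with R1881 in 22Rv1, 4 and 4 for R1881 there, 32 and 36 between lines, 14 for the siMETTL3 difference in vehicle and 16 for the R1881 difference, where HK2 and ALDOA took the place of ADM and ANGPTL4. It gave 0 in the remaining 5.

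Depth limited CA9 in 22Rv1, PPP1R3C in both lines, and ADM and ANGPTL4 in C4-2, where counts were at or near the floor.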
